A study of Homo sapiens with 4 samples.

Results

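The genes described here encode the epithelial sodium channel, the membrane-anchored serine proteases that act on it, and the inhibitors of those proteases. They are SCNN1A, SCNN1B and SCNN1G (the alpha, beta and gamma subunits), ST14 (matriptase), PRSS8 (prostasin), HPN (hepsin), SPINT1 (HAI-1) and SPINT2 (HAI-2). These 8 of the 17791 gene symbols in the counts table were taken by exact match of the symbol, in all 4 libraries. The set was put together with the ratios of the 3D tissues to flat culture in view, so those ratios are given as a description, and nothing is read from how many members passed in them. Of the 8 genes, 7 reached 1 CPM in at least 1 library (CPM, a gene's reads per 1000000 reads of a library after scaling), and HPN did not.

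RNA sequencing was done on engineered prostate cancer tissues (EPCaTs) and on a flat (2D) coculture of the same lines, PC-3 and BJ-5ta. PC-3 was derived from a bone metastasis of a prostate cancer, and BJ-5ta is a line of foreskin fibroblasts kept dividing by telomerase. The PF EPCaT held both lines in a gel of poly(ethylene glycol) joined to fibrinogen. The others, named PF+2%PEGDA and PF+3%PEGDA (the 2% and 3% gels), had 2% or 3% of poly(ethylene glycol) diacrylate added to tune how stiff the gel is. EPCaTs were seeded with 5 PC-3 cells to 1 BJ-5ta cell, kept in PC-3 medium and taken on day 15, and RNA came from more than 2 of them per library. RNA of the 2D coculture came from 1000000 cells, and the labels used here give neither its day nor its cell ratio, so the gel cannot be told apart from those conditions. All samples are mixtures of both lines, no sample was treated with a drug, and each group had 1 library. With no replicates, no test between groups was possible.

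The epithelial sodium channel carries sodium into the cells that line kidney tubules, colon, airway and gland ducts, and is built from alpha, beta and gamma subunits. Channels at the surface open more readily once proteases have cut the extracellular loops of the alpha and gamma subunits. Furin cuts both inside the cell, and prostasin is known for a further cut in gamma. Matriptase can activate prostasin, and HAI-1 and HAI-2 are Kunitz-type inhibitors that restrain both proteases at epithelial surfaces. In prostate cancer these genes are better known for their proteases, hepsin being raised in many tumours.

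Some stretches of SCNN1A and SCNN1G that matched patterns for such cutting are shown because they tie the subunits to the proteases measured beside them. They are coding sequence from GENCODE release 29 transcripts on GRCh38, read 5′ to 3′ on the gene's strand, each within 1 exon. Capitals mark the 4 codons that matched a furin-type pattern (arginine, any residue, lysine or arginine, arginine) or a run of 4 basic residues. Codons are counted from 1 at the start codon.
SCNN1A, codons 175 to 178 in exon 3, chr12:6363581-6363616, minus strand: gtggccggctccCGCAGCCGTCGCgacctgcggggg
SCNN1G, codons 135 to 138 in exon 3, chr16:23189444-23189479, plus strand: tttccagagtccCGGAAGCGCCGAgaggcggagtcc
SCNN1G, codons 178 to 181 in exon 3, chr16:23189573-23189608, plus strand: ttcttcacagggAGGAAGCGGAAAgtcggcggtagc
SCNN1B held 1 furin-type match, at codons 563 to 566 of 640, and no run of 4 basic codons. SCNN1G held another furin-type match at codons 50 to 53. A match is a description of the letters and not a measured cut. Sites outside these patterns were not searched for, so the matches need not be all the places that are cut.

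The proteases are made as inactive chains, and a cut ahead of the catalytic domain is part of their activation. Each of the 3 proteases held 1 match to the pattern of that cut site, and other cut sites were not searched for. Capitals mark the arginine codon before the cut and the 4 codons after it.
ST14, codons 614 to 618, chr11:130199971-130200009, plus strand: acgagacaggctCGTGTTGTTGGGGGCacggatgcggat
PRSS8, codons 44 to 48, chr16:31133336-31133374, minus strand: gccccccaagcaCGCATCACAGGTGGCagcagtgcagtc
HPN, codons 162 to 166, chr19:35060364-35060402, plus strand: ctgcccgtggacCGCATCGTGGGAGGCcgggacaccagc
The counts do not tell cut from uncut protein, so the values below concern RNA only.

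Total counts ran from 13760301 to 15687894 per library, and 1 count was worth 0.0600 to 0.0734 CPM. A fold below is a ratio of CPM with 0.5 counts added to each library, followed by its exact 95% interval, which covers counting error only. A gene is called higher or lower where the fold is at least 2 and the interval excludes 1. Markers of the 2 cell types in the mixture also differed between the gels and 2D. The 15 fibroblast markers summed to 879, 932 and 681 CPM in the PF, 2% and 3% gels, against 4406 CPM in 2D, with 12, 11 and 11 called lower. In the same order 2, 2 and 1 fibroblast markers lay above 2D and 13, 13 and 14 below. Abundant collagen genes weigh most in that sum, with COL1A1 at 1742 CPM in 2D against 307, 365 and 246 CPM in the gels. PDGFRA measured 17.4 CPM in 2D against 19.7, 20.4 and 24.9 CPM. The 15 epithelial markers summed to 5888, 6740 and 6362 CPM in the gels, against 4387 CPM in 2D, with 4, 5 and 5 called higher, and no marker of either list was at 0. In each gel 12 of the epithelial markers lay above 2D and 3 below. The shares of all tested genes called against 2D are given further below. Among abundant ones, KRT19 measured 752 CPM in 2D against 1248, 1865 and 1768 CPM in the gels, and KRT7 803 CPM against 628, 699 and 618 CPM. CTNNA1, the alpha-catenin gene, which is deleted in PC-3, measured 33.1 CPM in 2D but 5.40, 6.18 and 8.29 CPM in these gels. The part of the mixture in the results was not tested beyond a scaling to the summed epithelial markers, in which the abundant ones weigh most. In these bulk libraries fewer cells of a type and less RNA per cell cannot be told apart. Of the 8 endothelial and blood cell markers, cell types that were not seeded, 2 were tested and both were called higher in each EPCaT than in 2D. They were PECAM1 (65.4, 82.3 and 86.4 CPM against 7.15 CPM) and LYZ (2.16, 1.55 and 1.69 CPM against 0.272 CPM, from 4 counts in 2D). VWF and TEK were not tested, with at most 3 and 6 counts in any library. The remaining listed markers had no entry among the counted genes.

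All subunits of the channel were scarce in flat culture, where by CPM they exceeded 12.5% to 16.8% of tested genes, and stood above that level in every gel. SCNN1G (chr16:23182715-23216883, plus strand) measured 2.25 CPM in 2D, 74.0 CPM in PF, 71.7 CPM in PF+2%PEGDA and 72.1 CPM in PF+3%PEGDA. These values rest on 33 counts in 2D and on 1233, 1113 and 982 counts in the EPCaTs. With this scaling the gamma subunit transcript therefore sat at 1 level in the gels, which differed by at most 1.03-fold, and 31.4- to 32.4-fold above 2D. Over the other scalings tried, its log2 ratio to PF ran from -0.24 to -0.05 in PF+2%PEGDA and from -0.15 to -0.03 in PF+3%PEGDA. Among the 14851 tested genes its ratio to 2D ranked 82, 70 and 68 from the top in the PF, 2% and 3% gels.

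SCNN1B (chr16:23278231-23381299, plus strand), the beta subunit gene, measured 1.77 CPM in 2D, 33.0 CPM in PF, 28.8 CPM in PF+2%PEGDA and 40.4 CPM in PF+3%PEGDA. The library with 3% PEGDA was the highest and the 2D library the lowest. Against 2D these were 18.3-fold (12.6 to 28.8), 16-fold (10.9 to 25.2) and 22.4-fold (15.4 to 35.3), from 26 counts in 2D. SCNN1A (chr12:6346843-6377730, minus strand), the alpha subunit gene, measured 2.79 CPM in 2D, 10.1 CPM in PF, 15.8 CPM in PF+2%PEGDA and 20.0 CPM in PF+3%PEGDA. It was the subunit with the smallest ratio to 2D, at 3.60-fold (2.57 to 5.24), 5.59-fold (4.05 to 8.07) and 7.07-fold (5.13 to 10.2), from 41 counts there. Scaled to the summed epithelial markers instead, the log2 ratios to 2D were still 1.42, 1.86 and 2.29 for SCNN1A, 3.77, 3.38 and 3.95 for SCNN1B and 4.59, 4.35 and 4.45 for SCNN1G. All of these passed the 2-fold rule.

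**Figure D1:**
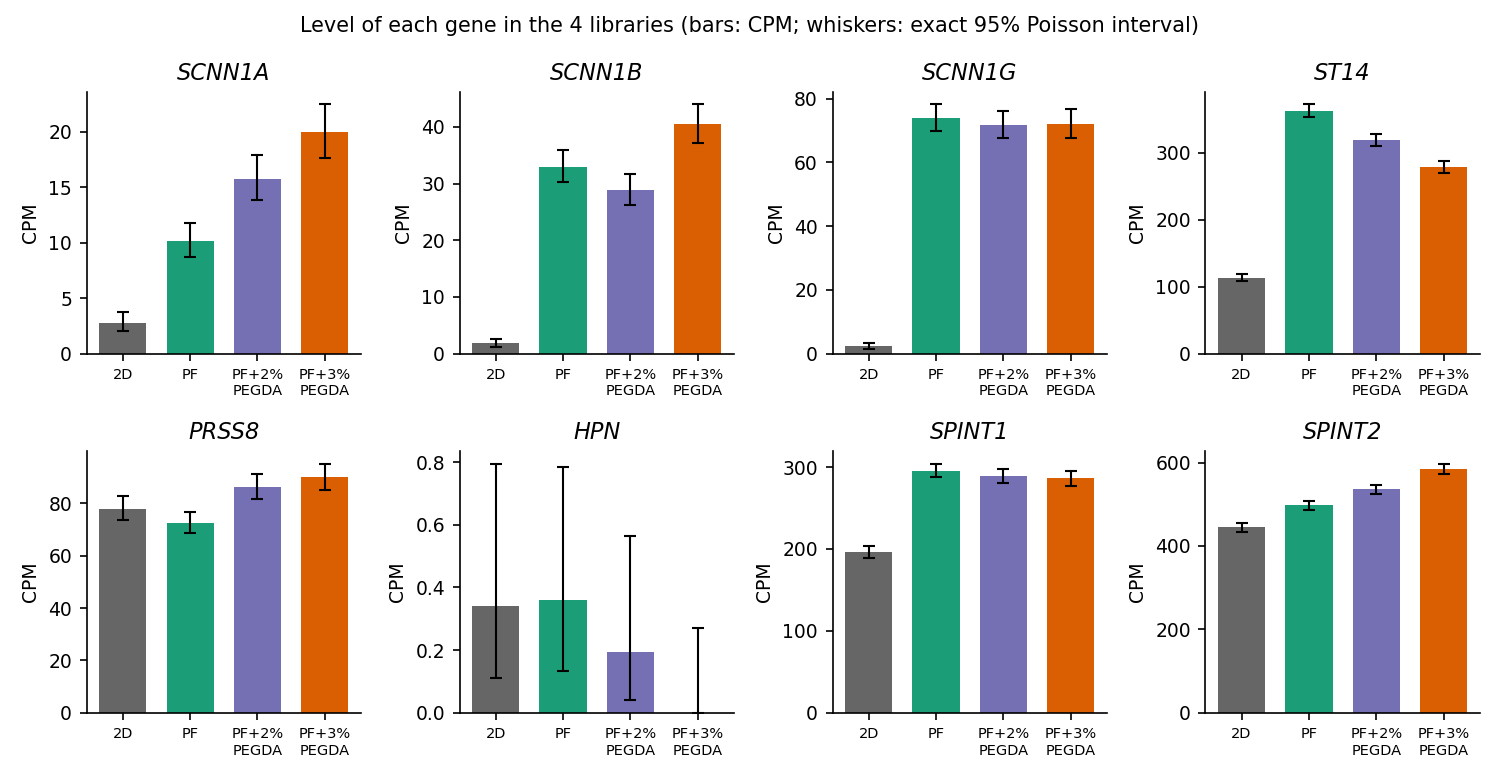
CPM of the 8 genes in each of the 4 libraries, as bars in separate panels with linear axes of different range, with whiskers for the 95% counting interval of each library. SCNN1A, SCNN1B and SCNN1G lie at 1.77 to 2.79 CPM in 2D and at 10.1 to 74.0 CPM in the EPCaTs, while PRSS8 and SPINT2 lie close together in the 4 libraries.

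The genes SCNN1G and SCNN1B lie on the same strand of chromosome 16, 61347 bases apart. The genes that flank the pair stayed below the 2-fold rule. USP31, on the SCNN1G side, measured 23.4 CPM in 2D against 25.3, 26.9 and 33.4 CPM in the PF, 2% and 3% gels. COG7, on the SCNN1B side, measured 14.6 CPM in 2D against 19.2, 18.4 and 18.4 CPM in the same gels. SCNN1A overlaps LTBR, a receptor gene on the other strand, which measured 376 CPM in 2D against 209, 226 and 222 CPM in the gels. The values of LTBR were thus lower in the gels than in 2D, without passing the 2-fold rule, where those of SCNN1A were higher. Counting by strand is not stated in the sources used here, so reads of the stretch that both genes share cannot be told apart.

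A RefSeq promoter entry (GRCh38.p14) was matched for 3 of the 8 genes, SCNN1B, SPINT1 and HPN. The stretch upstream of SCNN1B is shown because this gene and its neighbour SCNN1G stood far above 2D in each gel. It covers chr16:23302052-23302251 on the plus strand and is 68% G and C. It lies within the SCNN1B locus, which starts at 23278231 in GENCODE. It is ahead of the coding transcript used here for the cut sites, which starts at 23302270 in GENCODE, and of the RefSeq start at 23302302. GENCODE lists 5 protein-coding transcripts of the gene, and the starts of the others are not given here.
SCNN1B, ahead of the coding transcript: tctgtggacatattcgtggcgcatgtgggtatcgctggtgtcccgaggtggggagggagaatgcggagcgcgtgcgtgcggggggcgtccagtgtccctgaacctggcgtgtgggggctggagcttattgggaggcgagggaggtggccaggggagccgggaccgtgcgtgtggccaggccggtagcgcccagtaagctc
The 250 bases ahead of the start were searched on both strands for ACGTG (the hypoxia response core), AACCNGTT (grainyhead factors), AGAACA (a steroid receptor half-site) and CACCTG (the E-box bound by ZEB and SNAI factors). None of them was found ahead of SCNN1B. Over all 35116 windows of this length the shares with a match were 18.5%, 1.49%, 12.4% and 17.5% in the same order. The window of the downstream one of 2 SPINT1 starts held AGAACA 224 bases and CACCTG 26 bases before the start, and that of HPN held CACCTG at 167 and 84 bases. The window of the other SPINT1 start held none of them. These letters say nothing about whether a factor was bound.

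The makeup of the subunit RNA differed between flat culture and gel, a measure that does not depend on the scaling between libraries. Of all counts of the 3 subunits, SCNN1A took 41% in 2D (exact interval 31.3 to 51.3; 41 of 100 counts). In PF it took 8.66% (7.45 to 9.99), in PF+2%PEGDA 13.6% (12.0 to 15.2) and in PF+3%PEGDA 15.1% (13.4 to 16.8). The alpha share was therefore highest in flat culture and lowest in the gel without PEGDA. SCNN1G took 33.0% in 2D and 63.2%, 61.7% and 54.4% in the gels, while SCNN1B took 26.0% in 2D and 28.2%, 24.8% and 30.5%. Per transcript length, with the median length of each gene's coding transcripts, the alpha share was 39.3% in 2D and 8.80%, 14% and 14.9% in the gels.

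The count ratio of SCNN1G to SCNN1A was 0.805 (0.493 to 1.30) in 2D, 7.30 (6.21 to 8.62) in PF, 4.54 (3.95 to 5.24) in PF+2%PEGDA and 3.61 (3.15 to 4.14) in PF+3%PEGDA. Gamma was the more abundant of these subunits by counts in the gels, and in 2D the interval included equal counts. The ratio in PF+3%PEGDA was 0.495 times that in PF (0.399 to 0.613), so alpha drew nearer to gamma as PEGDA was added. SCNN1G to SCNN1B was 1.27 (0.736 to 2.21) in 2D, 2.24 in PF, 2.49 in PF+2%PEGDA and 1.78 in PF+3%PEGDA. Among the gels that ratio did not follow the order of PEGDA, and it was lowest in PF+3%PEGDA at 0.795 times the PF value (0.686 to 0.921).

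**Figure D2:**
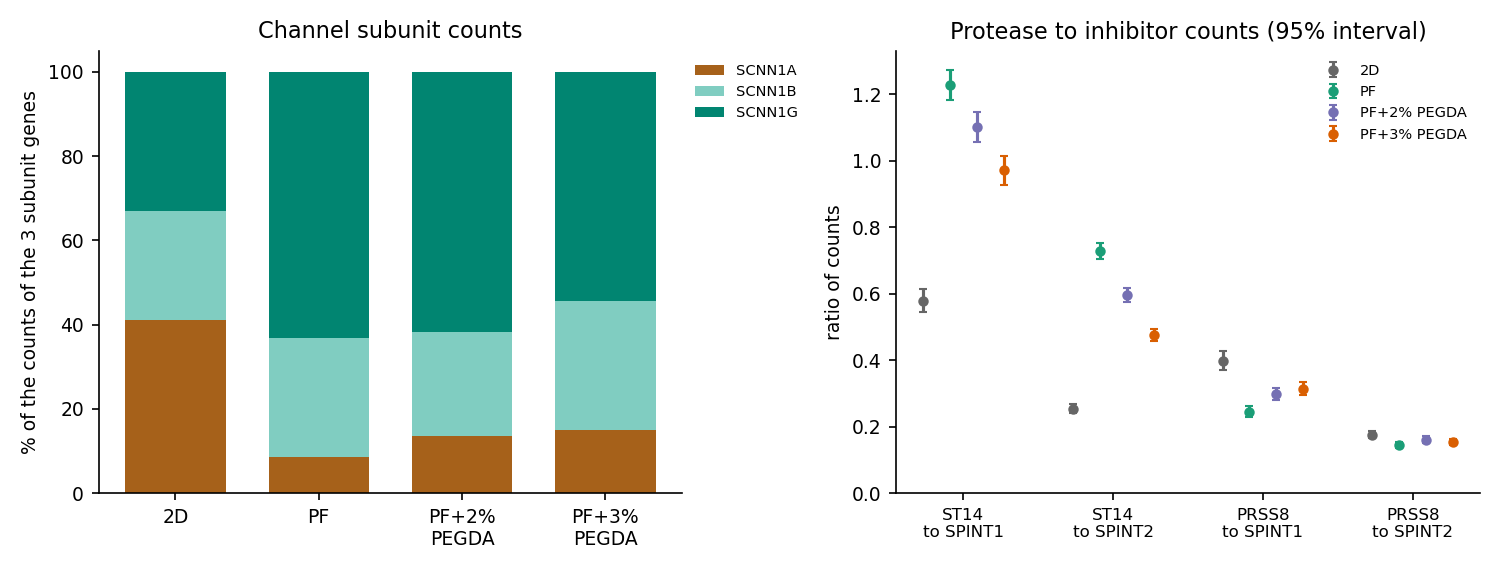
Share of each subunit in the summed counts of SCNN1A, SCNN1B and SCNN1G in every library (left, percent), and count ratios of ST14 and PRSS8 to SPINT1 and SPINT2 in every library, with 95% counting intervals (right). SCNN1A takes 41% of 100 counts in 2D and 8.66% to 15.1% in the EPCaTs, and the ratios of ST14 lie above their 2D values in each EPCaT.

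Among the proteases, ST14 stood apart from PRSS8. ST14 (chr11:130159562-130210376, plus strand) measured 113 CPM in 2D, 363 CPM in PF, 318 CPM in PF+2%PEGDA and 278 CPM in PF+3%PEGDA. Matriptase RNA was thus highest in the gel without PEGDA and lowest in flat culture, at 1663 counts or more in every library. Scaled to the epithelial markers, its log2 ratio to 2D was 1.25 in PF but 0.87 in PF+2%PEGDA and 0.76 in PF+3%PEGDA, which no longer passed the 2-fold rule.

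PRSS8 (chr16:31131433-31135762, minus strand), whose product is held to the membrane by a lipid anchor, measured 78.0 CPM in 2D, 72.6 CPM in PF, 86.3 CPM in PF+2%PEGDA and 90.0 CPM in PF+3%PEGDA. The gels lay on both sides of the 2D value. The log2 ratios to 2D were -0.10, 0.15 and 0.21, and over the scalings tried each of them took both signs (-0.53 to 0.08, -0.47 to 0.26 and -0.33 to 0.28). HPN (chr19:35040506-35066571, plus strand) had 5 counts in 2D and 6, 3 and 0 counts in the PF, 2% and 3% gels. The count of 0 in PF+3%PEGDA allows up to 0.220 CPM at a floor of 3 counts, or 0.271 CPM as the upper end of the exact 95% interval, so a difference in hepsin RNA was not detectable at this depth. HPN overlaps HPN-AS1, an antisense gene, which had no counts in any library.

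The inhibitors were abundant in both kinds of culture. SPINT2 (chr19:38244035-38292614, plus strand) measured 445 CPM in 2D, 498 CPM in PF, 535 CPM in PF+2%PEGDA and 584 CPM in PF+3%PEGDA. SPINT1 (chr15:40844018-40858207, plus strand) measured 196 CPM in 2D against 296, 289 and 286 CPM in the same gels. No gel reached 2-fold over 2D for either inhibitor. The log2 ratios of SPINT1 were 0.60, 0.56 and 0.55, and when scaled to the epithelial markers they were 0.17, -0.06 and 0.01. The log2 ratios of SPINT2 were 0.16, 0.27 and 0.39, and under that scaling they were -0.26, -0.35 and -0.14. SPINT1-AS1, an antisense gene that overlaps SPINT1, measured 6.40 CPM in 2D against 6.48 to 8.44 CPM in the gels.

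The balance of protease to inhibitor RNA was followed through count ratios within each library. The genes differ in length, so a count ratio shows change between libraries and not which RNA was more abundant. Per median coding transcript length, ST14 to SPINT1 was 0.164 in 2D and 0.349, 0.313 and 0.276 in the PF, 2% and 3% gels. ST14 to PRSS8 was 0.399 and 1.37, 1.01 and 0.848 by that measure. By counts, ST14 to SPINT1 was 0.579 (0.544 to 0.615) in 2D, 1.23 (1.18 to 1.27) in PF, 1.10 (1.06 to 1.15) in PF+2%PEGDA and 0.970 (0.928 to 1.01) in PF+3%PEGDA. The ratio in PF was 2.12 times that in 2D (1.97 to 2.28), and it stepped down with each addition of PEGDA to 1.90 and 1.68 times. Against SPINT2, the ST14 ratio was 2.86, 2.34 and 1.87 times that in 2D. PRSS8 to SPINT1 went the other way, from 0.398 in 2D to 0.245, 0.299 and 0.314 in the gels, so ST14 RNA stood higher against SPINT1 in the gels and PRSS8 RNA lower. Against SPINT2, the PRSS8 ratio was 0.832 (0.762 to 0.909), 0.920 (0.844 to 1.003) and 0.879 (0.805 to 0.959) times that in 2D, and the interval of the 2% gel included 1. ST14 to PRSS8 was 1.45 (1.35 to 1.57) in 2D and 5.00 (4.70 to 5.32), 3.69 (3.47 to 3.92) and 3.09 (2.90 to 3.30) in the gels. Intervals did not overlap between neighbouring libraries in that series. With the subunit ratios above, these were 7 of the 10 pairs of genes compared in this way.

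Levels of different genes can be compared only per length. Per 1000 bases of transcript, SPINT2 was the highest of the 8 genes in every library, at 676 CPM per 1000 bases in 2D and 756, 814 and 888 in the PF, 2% and 3% gels. HPN was the lowest in every library, and SCNN1A the next lowest in each gel (3.75, 5.84 and 7.39 CPM per 1000 bases). These places held with the median coding transcript, the union of all exons or the principal transcript as the length, though the values did not, since SPINT2 in 2D was 85.6 or 247 CPM per 1000 bases with the last 2. Other places changed with the length chosen: SCNN1B and SCNN1G in PF+3%PEGDA, ST14 and PRSS8 in 2D and PF+3%PEGDA, ST14 and SPINT1 in PF, and the 3 subunits in 2D.

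Set against all genes, 4 of the 7 tested members were called higher and 0 lower in each EPCaT against 2D: SCNN1A, SCNN1B, SCNN1G and ST14. The 3 comparisons share the 2D library, and the members were chosen on them. In PF against 2D, 16.5% of tested genes were called higher and 12% lower. The shares were 12.4% and 9.45% for PF+2%PEGDA and 12.1% and 10.4% for PF+3%PEGDA. The median log2 ratio of the members was 1.68, 1.49 and 1.29 in the same order, and that of all tested genes 0.02, 0.01 and 0.00. In PF against 2D these shares were 2448 and 1785 genes, which became 3007 and 1386 when libraries were scaled by their totals alone. Scaled to the epithelial markers, 1541 were higher and 3471 lower in PF, 854 and 4097 in PF+2%PEGDA and 939 and 3767 in PF+3%PEGDA.

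**Figure D3:**
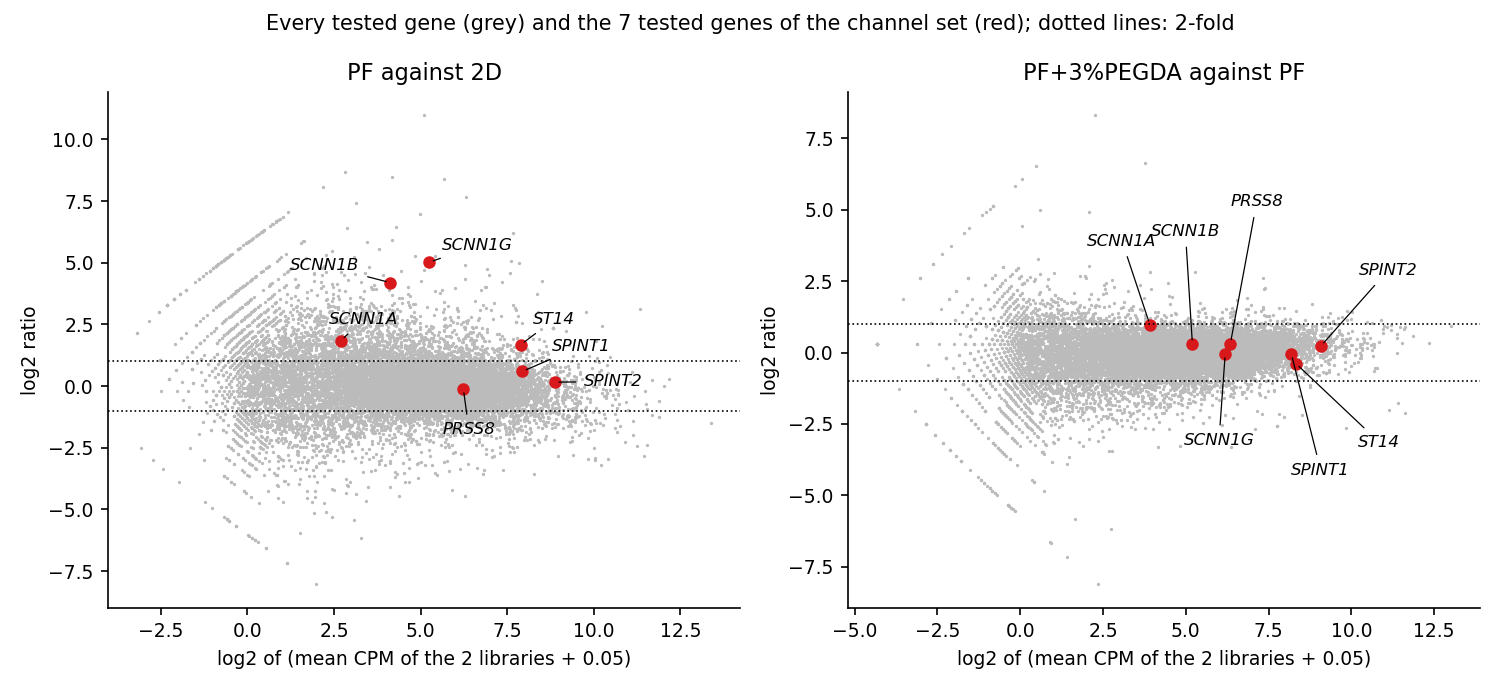
log2 ratio of every tested gene (grey) against its mean level in the 2 libraries, for PF against 2D (left) and PF+3%PEGDA against PF (right), with the 7 tested members in red and dotted lines at 2-fold. In PF against 2D the channel subunits and ST14 lie above the upper line, and in PF+3%PEGDA against PF all 7 lie between the lines, with SCNN1A at 0.98 just under the upper one.

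The study varied PEGDA to tune stiffness, and the comparisons between EPCaTs addressed that range. None of the 7 tested members was called in any of the 3 comparisons. For PF+3%PEGDA against PF, 3.64% of tested genes were called higher and 7.49% lower. For PF+2%PEGDA against PF the shares were 2.98% and 5.56%, and for PF+3%PEGDA against PF+2%PEGDA 1.87% and 2.39%. With 7 genes, a count of 0 is near these shares. With the epithelial scaling, 266 genes were higher and 1163 lower in PF+2%PEGDA than in PF.

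Below the 2-fold rule the members still did not move alike, beyond counting error. SCNN1A had the largest ratio of PF+3%PEGDA to PF, 1.97-fold (1.62 to 2.40), and both steps pointed upward, at 1.56-fold (1.27 to 1.91) from PF to PF+2%PEGDA and 1.26-fold (1.06 to 1.51) from there to PF+3%PEGDA. ST14 pointed downward in both steps, and its level in PF+3%PEGDA was 1.30-fold under that in PF (1.25 to 1.36). With the main scaling, SCNN1G did not differ from PF beyond its interval in either PEGDA gel. SCNN1B was 1.15-fold under PF in PF+2%PEGDA and then 1.40-fold (1.24 to 1.59) above that in PF+3%PEGDA. PRSS8 was 1.24-fold above PF in PF+3%PEGDA and SPINT2 1.17-fold. SPINT1 differed by at most 1.03-fold over the 3 gels with the main scaling. The signs for SCNN1A and ST14 held under each scaling, while SPINT2 in PF+2%PEGDA against PF turned from 0.11 to -0.09 on the log2 scale with the epithelial scaling. Over the scalings tried, the log2 ratios to PF in the 2% and 3% gels reached -0.24 and -0.15 for SCNN1G. For SPINT1 they reached -0.23 and -0.16, so the flat levels of these genes depend on the scaling. Fibroblast markers were mixed between these gels. They summed to 681 CPM in PF+3%PEGDA and 879 CPM in PF, with 10 of 15 below PF (COL1A2 alone called lower) and 5 above (LUM, PRRX1, DCN, PDGFRA and FBN1, none called). CTNNA1 measured 8.29 CPM in PF+3%PEGDA and 5.40 CPM in PF. The part of these markers in the ratios was not tested. With 1 library each, differences of this size cannot be told apart from those between cultures of 1 kind.

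**Figure D4:**
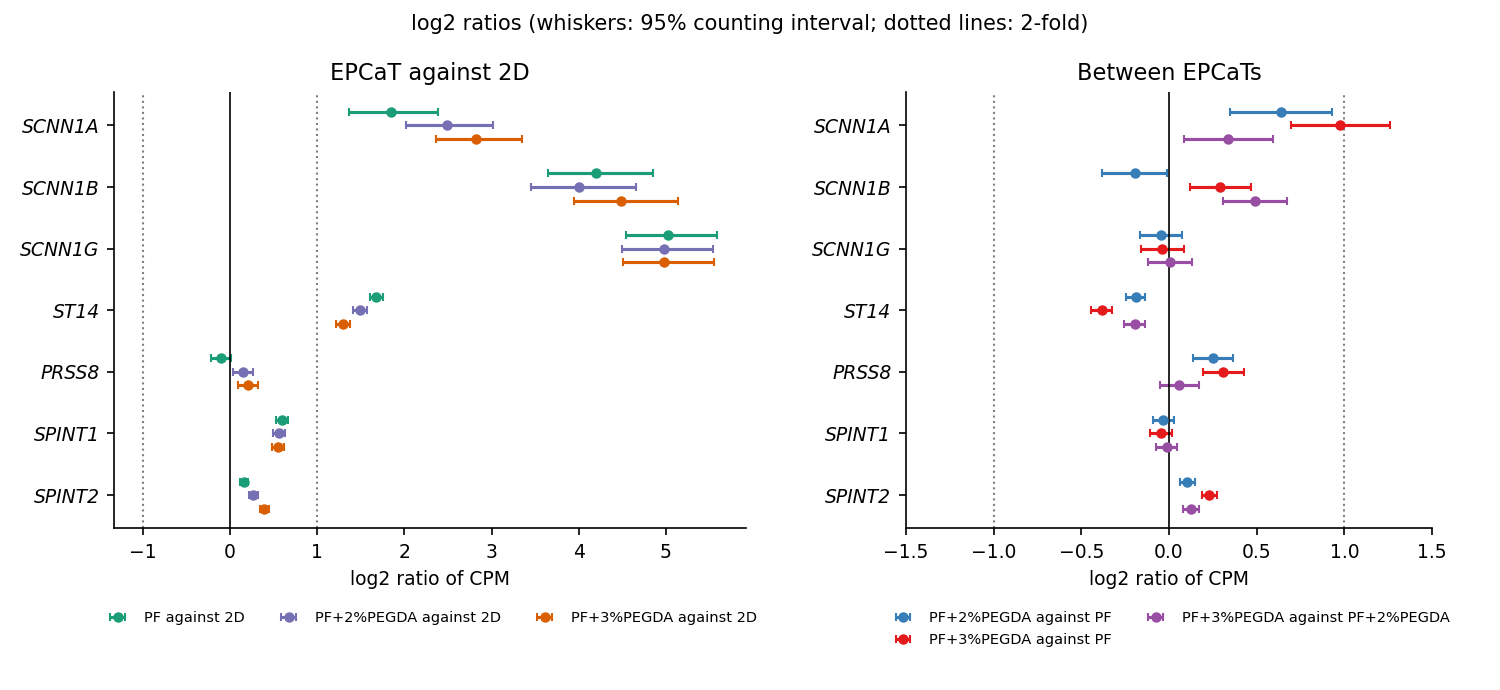
log2 ratios of the 7 tested genes, each EPCaT against 2D (left) and each pair of EPCaTs (right), with whiskers for the 95% counting interval and dotted lines at 2-fold. SCNN1A, SCNN1B, SCNN1G and ST14 lie beyond 2-fold in each EPCaT against 2D, and no gene does between EPCaTs.

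The other channel genes of the family were read next. For the lists from here on, 16.5%, 12.4% and 12.1% of all tested genes were called higher than 2D in the PF, 2% and 3% gels. In the same order 12%, 9.45% and 10.4% were called lower. A list count near these shares is not read as a result about that list. SCNN1D, the delta subunit gene, measured 3.07 CPM in 2D, 8.04 CPM in PF, 3.8 CPM in PF+2%PEGDA and 2.49 CPM in PF+3%PEGDA. It was high in PF alone, and in PF+3%PEGDA was 3.19-fold lower than in PF (2.20 to 4.84), where SCNN1A pointed upward. Of the 3 tested genes of the degenerin and acid-sensing family, SCNN1D included, 2, 2 and 1 were called higher than 2D in the PF, 2% and 3% gels and 0 lower. ASIC3, an acid-sensing channel gene, measured 0.477 CPM in 2D (7 counts) against 3.66, 3.35 and 3.23 CPM in the gels.

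Genes that control the channel were called in both directions. Of 19 such genes, all tested, 3, 3 and 4 were called higher and 3, 1 and 1 lower in the PF, 2% and 3% gels against 2D, with median log2 ratios of -0.17, -0.17 and -0.43. HSD11B2, which inactivates cortisol so that aldosterone can reach its receptor, measured 0.886 CPM in 2D (13 counts), 9.12 CPM in PF, 39.9 CPM in PF+2%PEGDA and 36.2 CPM in PF+3%PEGDA. It was the only gene of the list called between EPCaTs, 4.37-fold higher in PF+2%PEGDA than in PF (3.66 to 5.27) and 3.97-fold higher in PF+3%PEGDA (3.31 to 4.80). SGK1, the aldosterone-induced kinase that keeps the channel at the surface, measured 22.4 CPM in 2D against 9.0, 8.37 and 11.9 CPM in the gels, and was called lower in PF and PF+2%PEGDA. KLHL3, an adaptor of a ubiquitin ligase that acts on WNK kinases, was 6.16-, 5.10- and 4.65-fold higher than 2D. NEDD4L, the ubiquitin ligase that removes the channel from the surface, and NR3C2, the aldosterone receptor, were named after their values were seen. NEDD4L measured 124 CPM in 2D against 79.5, 74.0 and 78.4 CPM in the gels, and NR3C2 15.1 CPM and 9.06, 10.2 and 10.1 CPM, none past the 2-fold rule.

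Partner genes of salt and water transport held both strong and flat members. Of 20 listed, 13 were tested, with 2, 3 and 3 called higher and 2 lower in each gel against 2D (medians 0.46, 0.10 and 0.33). SLC12A2, the sodium, potassium and chloride cotransporter of secretory epithelia, measured 45.9 CPM in 2D against 390, 407 and 464 CPM in the PF, 2% and 3% gels. AQP3, a water and glycerol channel, measured 1.70 CPM in 2D against 17.5, 21.97 and 19.7 CPM. ATP1B1, the beta subunit of the sodium pump that carries sodium out again, measured 143 CPM in 2D against 255, 268 and 348 CPM, and passed the rule in PF+3%PEGDA alone. ANO1, a chloride channel gene, ran the other way, from 219 CPM in 2D to 79.6, 83.2 and 51.1 CPM. FXYD5, a regulator of the sodium pump, went from 98.8 CPM in 2D to 25.3, 42.1 and 46.3 CPM.

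Other proteases that can act at the cell surface were compared with ST14 and PRSS8. Of 16 further type II transmembrane serine proteases, 2 were tested. TMPRSS2, known for its androgen control in prostate, measured 42.4 CPM in 2D against 383, 310 and 301 CPM in the PF, 2% and 3% gels, the same rank order of libraries as ST14. TMPRSS3 had 16 counts in 2D and 6 to 11 in the gels. Of 23 other proteases reported to cut the channel or related to them, 13 were tested, with 3, 2 and 2 called higher and 3, 3 and 2 lower against 2D (medians 0.15, 0.02 and -0.26). PLAU, urokinase, was lower in each gel, at 376.5, 384 and 296 CPM against 848 CPM in 2D. KLK11, a kallikrein, had 0 counts in 2D and 11, 25 and 16 counts in the gels. FURIN, the furin gene, named after its values were seen, measured 63.4 CPM in 2D against 71.7, 69.3 and 75.0 CPM.

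Of 18 other protease inhibitors, 11 were tested, with 1 called higher in each gel and 3, 1 and 1 lower against 2D (medians -0.63, 0.01 and 0.10). SPINK5, an inhibitor of kallikreins in skin, measured 0.545 CPM in 2D (8 counts) against 13.3, 7.02 and 5.94 CPM in the PF, 2% and 3% gels. TFPI, a Kunitz-type inhibitor of the clotting pathway, measured 79.6 CPM in 2D, 35.2 CPM in PF, 70.5 CPM in PF+2%PEGDA and 80.7 CPM in PF+3%PEGDA. It was 2.29-fold higher in PF+3%PEGDA than in PF (2.07 to 2.54), as was SLPI at 2.01-fold (1.88 to 2.16), where SPINT1 and SPINT2 did not pass the rule.

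Of 17 substrates and receptors of these proteases, 15 were tested, with 2, 0 and 1 called higher and 4, 1 and 3 lower against 2D (medians 0.03, -0.20 and -0.27). EPHA2, a receptor kinase that matriptase can cut, measured 904 CPM in 2D against 341, 272 and 205 CPM in the PF, 2% and 3% gels. LAMB3, a laminin chain gene, measured 698 CPM in 2D against 275, 373 and 342 CPM, and was called lower in PF and PF+3%PEGDA. HGF, the growth factor whose precursor matriptase and hepsin activate, measured 1.09 CPM in 2D (16 counts) against 2.28, 2.13 and 3.30 CPM.

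Transcription factors that promote or repress epithelial identity were read last. Of the 15, all tested, 7, 6 and 5 were called higher and 3, 2 and 2 lower than 2D (medians 0.09, 0.00 and -0.17). EHF, an ETS factor of epithelia, measured 38.9 CPM in 2D against 159, 117 and 127 CPM in the gels, and OVOL1, a zinc finger factor, 11.0 CPM and 46.2, 37.9 and 43.7 CPM. SNAI2, a repressor of epithelial genes, measured 56.1 CPM in 2D against 4.26, 6.12 and 6.46 CPM, and ZEB2, another such repressor, 9.88 CPM and 2.94, 1.61 and 2.27 CPM. Fibroblasts also express SNAI2 and ZEB2, and the fibroblast markers summed to 4406 CPM in 2D and to 681 to 932 CPM in the gels. Their part in these values was not tested.

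**Figure D5:**
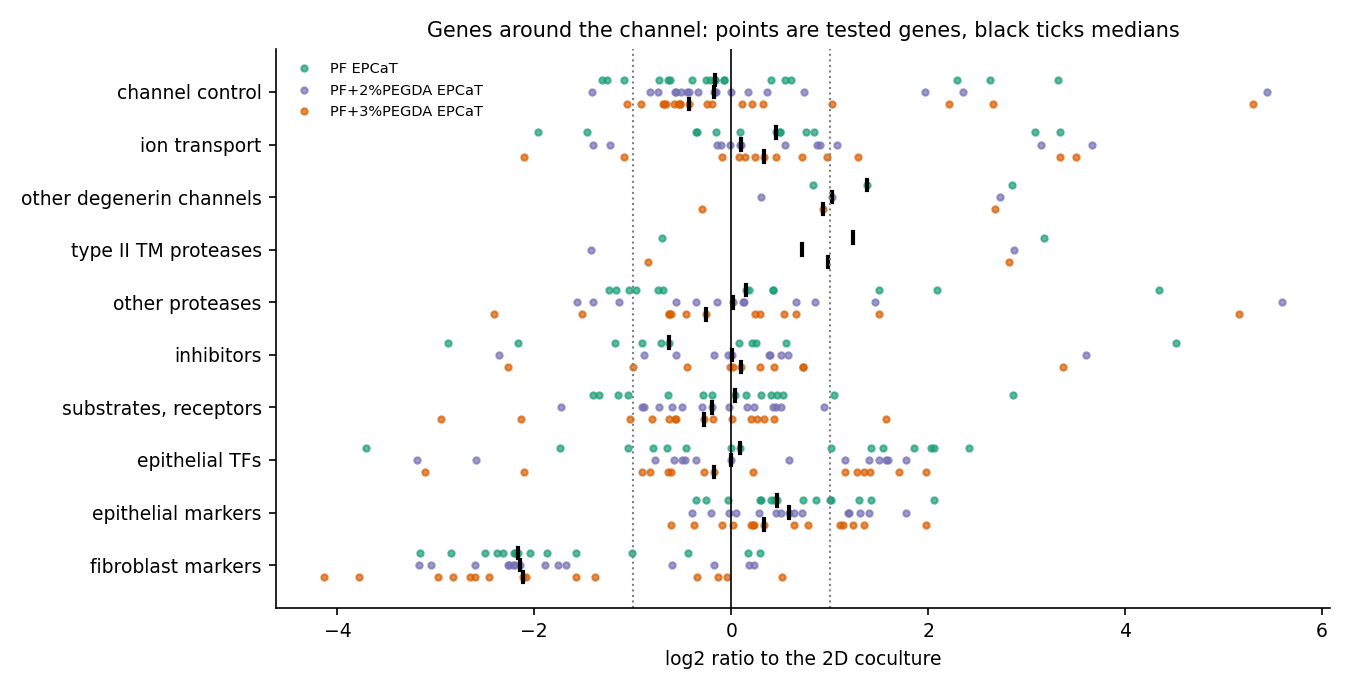
log2 ratio to 2D of each tested gene in 10 of the gene lists (points, 1 row per EPCaT), with black ticks at the list medians and dotted lines at 2-fold. The medians of fibroblast markers lie at -2.16 to -2.12, those of channel control between -0.43 and -0.17, and the points of KLK11 above 4 depend on the prior count, since 2D had 0 counts.

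For each tested member, the genes with the most similar pattern over the 4 libraries were found by the root mean square difference of log2 CPM centred on the gene's mean, among 12363 genes with at least 5 CPM in a library. Nearest to SCNN1A were BNIP3 (distance 0.06), FAM162A (0.09) and ADAMTSL4 (0.09). BNIP3 measured 45.6 CPM in 2D against 177, 253 and 311 CPM in the PF, 2% and 3% gels. Nearest to SCNN1B were DHRS9 (0.12), LOC154761 and LANCL3 (both 0.16). Nearest to SCNN1G were UBXN10 (0.09), COL2A1 (0.14) and TXNIP (0.17), of which COL2A1 measured 14.1 CPM in 2D against 449, 516 and 391 CPM. The 3 subunit genes had unlike ratios to 2D, so nothing further is read from their having different nearest genes. Some of these genes were scarce in 2D, with UBXN10 at 0.136 CPM, LANCL3 at 0.613 CPM and ADAMTSL4 at 0.681 CPM. Nearest to ST14 were ALG10, KLHL13 and TNIK (0.02 to 0.04), to PRSS8 MAEA, VPS35 and CAMK1, to SPINT1 RCBTB1, REST and ZNF3, and to SPINT2 MGAT5, ATG4C and ZNF468. The distances rest on 4 libraries and describe those libraries only.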

How the data were processed

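The authors deposited 1 table of expected counts (estimated read counts per gene, not scaled between libraries), and the labels' protocols give RNA purified with QIAshredder and RNeasy kits and libraries made with a TruSeq RNA kit. FastQC, STAR, Partek and hg38 are named in the submitters' processing notes. Versions, annotation, counting method and strand setting are not given in the sources used here. Of the values, 18.2% to 19.9% per library were not whole numbers (tolerance 0.01), so values were rounded. A gene was tested if any library reached 1 CPM (14851 genes). Scaling used edgeR 4.0.16 under R 4.3.3, with its trimmed mean of M-values (TMM). Ratios used a prior of 0.5 counts and exact Clopper-Pearson 95% intervals, and called genes differed at least 2-fold with an interval excluding 1. The calculation was tested on simulated counts. Ratios and plots were made in Python 3.11.15 (pandas 2.3.3, numpy 2.4.6, matplotlib 3.10.9, scipy 1.17.1). Members and the 11 gene lists were chosen with earlier results of these data known. Named genes were the 8 members, SCNN1 family genes, flanking genes, CTNNA1, up to 4 called genes per list with the largest mean ratio to 2D and up to 2 with the highest CPM, and the 3 genes most like each member. Others are given as named after their values were seen, and LTBR and the antisense genes as overlapping members. Alternatives tried were upper quartile, total counts, size factors from DESeq2 1.42.0, scaling to the summed epithelial markers, a prior of 2, no filter, size rules of 1.5- and 4-fold, unrounded counts, other transcript lengths and another distance. The length of the principal transcript was added after seeing the data. The share of a member's 50-base stretches that also occur in another gene was 0% for SCNN1B and ST14 and at most 8.64% (PRSS8). It was 6.92% for SCNN1A, whose shared stretches lay in many other genes, LTBR among them.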

Additional observations from a re-analysis of the deposited data

How the results depend on the processing

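Of 336 values of the tested members (42 ratios under 8 alternatives), 327 kept their call. A ratio not called on either side counted as kept whichever way it pointed. The 1.5- and 4-fold rules and the lack of a filter leave the ratios themselves unchanged, so no direction could change there. Without a filter no call of these members could change either. The 2 ratios that lost a call under another scaling were ST14 in PF+2%PEGDA (log2 ratio 0.87) and PF+3%PEGDA (0.76) against 2D, scaled to the epithelial markers. At 4-fold, 2 members in place of 4 were called higher in PF against 2D, and at 1.5-fold SCNN1A alone (1 in place of 0) was called higher in PF+2%PEGDA and in PF+3%PEGDA against PF. SPINT1 passed at 1.5-fold in PF against 2D. With no filter on low counts, 2 list genes in place of 0 were higher and 4 in place of 2 lower in PF+3%PEGDA against PF+2%PEGDA, since more genes were tested. Scaling moved the median of all genes against 2D to 0.20, 0.12 and 0.08 with total counts and to -0.40, -0.61 and -0.53 with the epithelial markers in the PF, 2% and 3% gels. The gene most like PRSS8 was CAMK1 by the largest difference. Depth limits HPN, at 0 to 6 counts, and the 2D shares of the subunits, which rest on 100 counts. No paired analysis was possible because each group had 1 library.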
